A study of Mus musculus with 6 samples.

Results

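Threonine, glycine and one-carbon metabolism was described through 10 genes, chosen by symbol: Tdh, Gcat, Gldc, Amt, Shmt1, Shmt2, Mthfd2, Mthfd1l, Phgdh and Psat1. They occupied 11 of the 57180 rows of the deposited table, because Gcat is listed under a pair of Ensembl identifiers, and all 11 rows were among the 15714 that passed the filter on low counts. The cells were mouse embryonic stem (ES) cells, C57BL/6 by strain, and RNA was sequenced in 3 wild-type (WT) libraries and 3 libraries from cells with both Mpp8 (gene symbol Mphosph8) and Tasor knocked out (dKO). MPP8 and TASOR belong to HUSH, the human silencing hub, which represses retroelements and some genes in chromatin. Apart from the knockout, the labels describe the groups in the same terms, and they do not say whether the dKO cells are 1 clone or several, or whether the 3 libraries of a genotype are separate cultures. If they are not, p-values measure technical spread.

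Mouse ES cells are known for a high level of threonine dehydrogenase, encoded by Tdh, a mitochondrial enzyme that starts threonine breakdown. Its product is split by the enzyme that Gcat encodes into glycine and acetyl-CoA. The glycine cleavage system, whose subunits include the products of Gldc and Amt, passes a carbon of glycine to tetrahydrofolate. Phgdh and Psat1 make serine from a glycolytic intermediate, Shmt1 in the cytosol and Shmt2 in mitochondria interconvert serine and glycine, and Mthfd2 and Mthfd1l carry the one-carbon unit through mitochondria to formate. These units serve nucleotide synthesis and, by way of methionine, methylation reactions.

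In dKO cells RNA for the first enzyme of threonine breakdown was lower and RNA for the next was higher. RNA for both glycine cleavage subunits among the 10 and for the serine synthesis gene Psat1 was lower. Only RNA was measured, so protein, enzyme activity and metabolites are not known. Amt fell to 0.631 times its WT level, Tdh to 0.72 times, and Gldc and Psat1 both to 0.818 times (rounded to 3 digits), while Gcat rose 1.55-fold under its main identifier. Shmt1, Shmt2, Mthfd2, Mthfd1l and Phgdh were not called. In all, 4 rows were lower, 1 was higher and 6 passed in neither direction by edgeR's quasi-likelihood test with p-values adjusted by Benjamini-Hochberg and a threshold of 0.05. Among all tested genes, 34.3% were called, 16.4% as higher and 17.9% as lower. The split of 2578 higher and 2813 lower genes turned with scaling by library totals, to 3034 higher and 2393 lower. The median log2 fold change was -0.19 over the 11 rows and -0.02 over all genes tested. With such a background, 5 calls among 11 rows (45.5%) are a description of these genes and not a sign that they stand apart. Without WT replicate 1, dKO replicate 1 or dKO replicate 2, 3 rows were called in each case, and without WT replicate 2, 7 were called.

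The knocked-out genes were checked first. Mphosph8 had 2159, 3597 and 2173 counts in WT and 1, 4 and 3 in dKO, and Tasor had 2631, 4932 and 2567 in WT and 180, 196 and 204 in dKO. Total counts per library ran from 18384804 to 24910541. WT replicate 2 stood apart from the other libraries on the second principal component (-45.2, against -11.3 to 29.7). It held 2.29% mitochondrial counts against 1.34% to 1.63% elsewhere. In CPM (counts scaled to library size) it gave the lowest WT value in 10 of the 11 rows. This depended on the scale. In TPM, an abundance corrected for length, it was the highest WT library for the main Gcat row, Gldc, Amt, Shmt1, Mthfd2, Mthfd1l and Psat1. There it was the lowest for Phgdh and the second Gcat row. ES markers were mostly not called (0 of 12 higher, 3 lower, 9 not called). Trophoblast markers were lower in 9 of 10 tested cases and higher in 0. Their summed level was 316 to 449 CPM in WT and 68.7 to 74.7 in dKO. Of the 12 listed, Tpbpa was at 0 in all libraries and Cdx2 had too few counts for a test. Primitive endoderm markers were lower in 7 of 10 cases and higher in 1 (summed 1490 to 1656 CPM in WT, 738 to 752 in dKO), and fibroblast markers were higher in 5 of 10 and lower in 0 (38.1 to 47.8 and 62.5 to 64.6 CPM). The part of these cells in the results below was not tested. In bulk RNA, fewer cells of a type and less RNA per cell cannot be told apart.

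RefSeq promoter sequences on GRCm38.p6 were matched for 9 of the 10 genes (10 entries), all but Tdh. Those of 4 genes that changed in dKO are shown, 3 that fell and 1 that rose. With 1 gene that rose and no entry for Tdh, which also fell, a link between promoter letters and direction was not tested. Each is the 250 bases before an annotated start, written 5′ to 3′ on the gene's strand, with CCAAT boxes (CCAAT or ATTGG) and GC boxes (GGGCGG or CCGCCC) in capitals. The Amt sequence is chr9:108296655-108296904 on the plus strand, Gldc is chr19:30175442-30175691 on the minus strand, and Gcat is chr15:79030624-79030873 on the plus strand. Psat1 has 2 entries on the minus strand, chr19:15925060-15925309 and chr19:15924623-15924872.

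Amt: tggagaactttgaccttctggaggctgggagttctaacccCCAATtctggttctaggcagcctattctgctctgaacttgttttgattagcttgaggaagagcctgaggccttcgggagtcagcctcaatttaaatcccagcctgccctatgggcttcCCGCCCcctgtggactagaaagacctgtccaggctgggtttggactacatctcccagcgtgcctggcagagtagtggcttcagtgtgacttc

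Gldc: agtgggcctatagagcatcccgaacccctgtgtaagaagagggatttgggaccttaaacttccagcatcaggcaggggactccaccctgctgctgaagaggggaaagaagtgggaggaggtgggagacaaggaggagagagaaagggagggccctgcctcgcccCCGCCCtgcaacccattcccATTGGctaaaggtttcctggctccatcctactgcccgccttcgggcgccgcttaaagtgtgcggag

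Psat1, upstream start: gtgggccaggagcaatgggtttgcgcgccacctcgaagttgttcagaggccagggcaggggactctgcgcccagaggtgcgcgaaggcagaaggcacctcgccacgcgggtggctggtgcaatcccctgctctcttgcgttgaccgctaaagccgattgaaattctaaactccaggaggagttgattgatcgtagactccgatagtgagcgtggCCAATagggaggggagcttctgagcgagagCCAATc

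Psat1, downstream start: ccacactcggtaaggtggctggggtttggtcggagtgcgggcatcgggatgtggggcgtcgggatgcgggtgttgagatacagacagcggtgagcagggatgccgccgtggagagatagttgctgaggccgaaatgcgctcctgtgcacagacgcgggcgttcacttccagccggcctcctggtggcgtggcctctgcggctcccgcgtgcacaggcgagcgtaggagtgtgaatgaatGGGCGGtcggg

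Gcat: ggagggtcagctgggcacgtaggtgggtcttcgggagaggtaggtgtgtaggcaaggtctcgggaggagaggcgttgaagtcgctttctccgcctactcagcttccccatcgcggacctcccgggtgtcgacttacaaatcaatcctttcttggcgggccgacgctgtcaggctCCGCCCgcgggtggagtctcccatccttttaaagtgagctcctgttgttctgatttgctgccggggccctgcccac

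The glycine cleavage promoters each held 1 CCAAT box and 1 GC box. In Gldc the CCAAT box began 66 bases before the start and the GC box 86, and in Amt they began at 210 and 92. Psat1 held 2 CCAAT boxes at its upstream start, 36 and 6 bases before it, and a GC box at its downstream start. Gcat had a GC box 76 bases before its start and no CCAAT letters. The Amt window had 3 CpG dinucleotides, Gldc 8, Psat1 16 and 24 at its upstream and downstream starts, and Gcat 17, where the median over all promoters was 6. Among the shown genes that fell, Amt, Gldc and the upstream Psat1 start had fewer CpG than Gcat. Only the downstream Psat1 start had more. Of the genes not called, Shmt1 had 13 CpG and Shmt2, Mthfd2, Mthfd1l and Phgdh had 7 each, also fewer than Gcat. CCAAT boxes occurred in Shmt1, Mthfd2 and Phgdh and not in Shmt2 or Mthfd1l. Over the 10 entries, 6 held a CCAAT box and 6 a GC box. Among all 32851 promoter entries of the same length these letters occurred in 33.8% and 32.7%. The amino acid response element TGATGNAA, which ATF4 binds, and the E-box CACGTG, which MYC binds, were searched on both strands and found in 0 of the 10 entries, against 3.45% and 6.02% of all entries. No CCAAT box overlapped a GC box in the printed windows. A match is only a run of letters in this window.

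Tdh had 265, 217 and 272 CPM in WT replicates 1, 2 and 3 and 179, 170 and 194 CPM in dKO replicates 1, 2 and 3. All 3 dKO libraries lay below all 3 WT libraries. The mean fell from 251 ± 30 to 181 ± 12.4 CPM (SD, n = 3 each), a log2 fold change of -0.47 (SE 0.106, 95% interval -0.71 to -0.23, edgeR quasi-likelihood adjusted p = 0.00787). In CPM the groups did not overlap in 8 of the 11 rows, where 49.2% of all tested genes showed the same. Per length, Tdh was at 237 ± 13.5 TPM (transcript abundance corrected for length, the authors' values) in WT and 176 ± 6.18 TPM in dKO, with no overlap on that scale either. In TPM the groups did not overlap in 3 of the 11 rows, those of Tdh, Amt and Phgdh. The share over all tested genes is not given for TPM. The antisense gene annotated within Tdh, Gm17232, had 0 counts in all libraries. The authors' deposited table gives Tdh a log2 fold of -0.46 and an adjusted p of 0.00139. In the authors' deposited table the same 5 rows pass an adjusted p of 0.05, with Gcat at a log2 fold of 0.65, Gldc at -0.28, Amt at -0.65 and Psat1 at -0.28.

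Tdh lies on chromosome 14, which also carries Mphosph8 and Tasor and on which 370 of 525 tested genes (70.5%) were lower in dKO and 32 were higher. The median log2 fold change over these genes was -0.94, with quartiles of -1.29 and -0.49. Tdh's value of -0.47 was above the upper quartile, and 128 of the 525 genes (24.4%) had a value above it. Its 95% interval, -0.71 to -0.23, did not reach the chromosome's median. All 8 of its nearest tested neighbours, 4 on each side, were called lower, and all 8 had a larger fall than Tdh.

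On one side of Tdh, Fam167a had a log2 fold change of -1.69 (95% interval -2.03 to -1.36), and the endoderm factor gene Gata4 one of -1.49. The DNA glycosylase gene Neil2, at -0.71, and Fdft1, at -0.75, which encodes squalene synthase, had the values closest to that of Tdh. On the other side the phosphoinositide phosphatase relative Mtmr9 had a log2 fold change of -1.27 (95% interval -1.49 to -1.05), Xkr6 one of -1.33, Pinx1 one of -0.95 and the endoderm factor gene Sox7, with 10, 23 and 16 counts in WT and 0, 0 and 6 in dKO, one of -2.89. The Sox7 call was lost without WT replicate 1, WT replicate 3, dKO replicate 1 or dKO replicate 2 (adjusted p 0.058 to 0.0996). The intervals of 4 neighbours overlapped that of Tdh, and those of the other 4 did not. Among the 50 tested genes nearest to Tdh, 25 on each side, the median was -1.14 and 6 genes had a value above that of Tdh. The difference between Tdh and these genes was not tested, and a change tied to the chromosome and one tied to the missing subunits cannot be told apart.

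**Figure D1:**
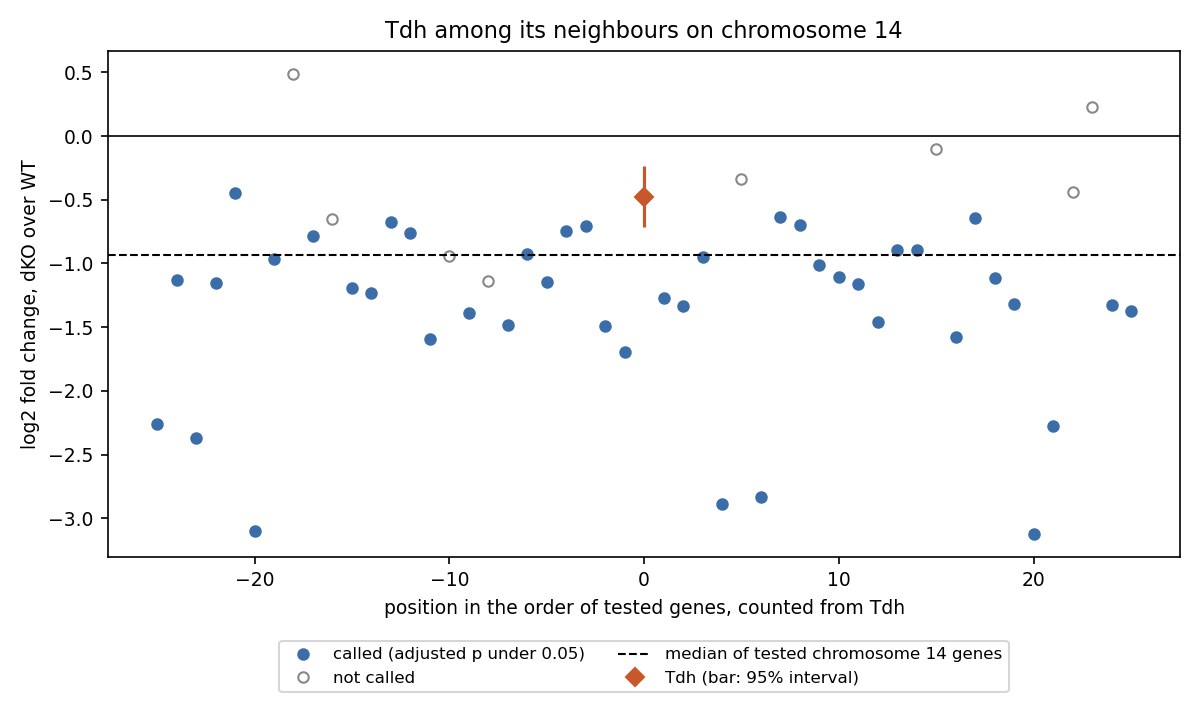
Log2 fold change, dKO over WT, of Tdh and the 25 tested genes on each side of it, in their order along chromosome 14 (GENCODE M21). Filled circles were called at an adjusted p under 0.05, open circles were not, the diamond is Tdh at -0.47 with its 95% interval, and the dashed line is the chromosome 14 median of -0.94, below which most neighbours lie.

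Gcat, the next step of threonine breakdown, lies on chromosome 15, and its main identifier (ENSMUSG00000006378) had 31.4, 24.6 and 26 CPM in WT and 35.1, 48 and 44 CPM in dKO. The groups did not overlap, and the highest WT library, replicate 1, was close to the lowest dKO library, replicate 1. The mean rose from 27.3 ± 3.56 to 42.4 ± 6.59 CPM (SD, n = 3 each; log2 0.63, SE 0.145, 95% interval 0.31 to 0.96, edgeR quasi-likelihood adjusted p = 0.0088). The other identifier (ENSMUSG00000116378) is an overlapping gene model on the same strand, and reads shared by both had to be divided by estimation. It had 7.33, 4 and 13.4 CPM in WT and 14.8, 6.82 and 12.9 in dKO, which overlapped, and was not called (log2 0.50, edgeR adjusted p = 0.443). With both summed, an alternative chosen after seeing the data, Gcat rose from 35.6 ± 6.04 to 53.9 ± 3.59 CPM (log2 0.60, SE 0.138, edgeR adjusted p = 0.00872).

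The balance of the pair was taken within each library. There were 14.6, 13.2 and 14.5 Gcat counts (both identifiers) per 100 Tdh counts in the WT libraries and 27.9, 32.3 and 29.3 in the dKO libraries. The ratio does not depend on library scaling, and the groups did not overlap. It was 14.1 ± 0.78 in WT and 29.8 ± 2.25 in dKO (SD, n = 3 each; exact permutation test, two-sided, p = 0.1, the smallest that 3 against 3 allows, and 0.167 adjusted over the 5 ratios computed). The ratios were chosen after the values were seen. Summed Gcat was at 28.6 to 39.4 CPM in WT and 49.9 to 56.9 in dKO, without overlap. Tdh also separated the genotypes, in the opposite direction. An overlap of the Gcat to Tdh ratio was thus impossible, and its p-value was bound to be 0.1. Neither the separation of the ratio nor its test adds to the results of the single genes. On the TPM scale the main Gcat identifier ran from 15.6 to 42.1 in WT and from 38.4 to 73.2 in dKO, so the groups overlapped per length.

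**Figure D2:**
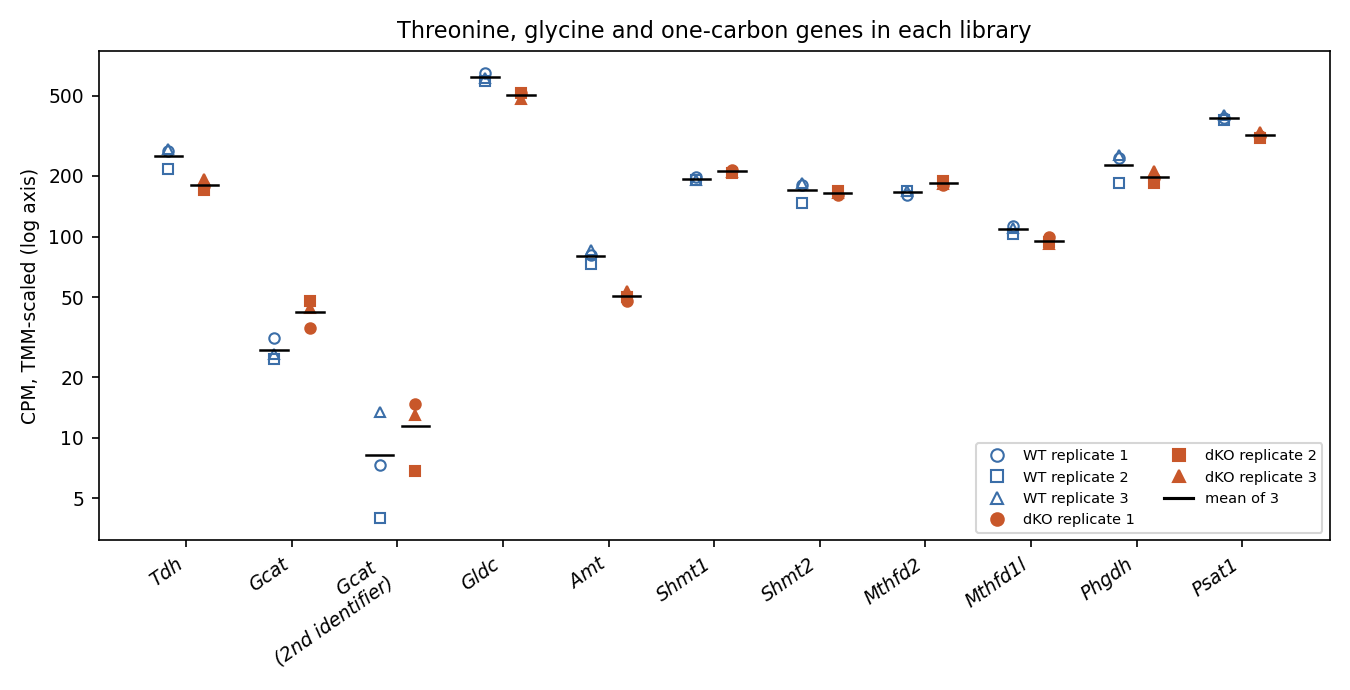
TMM-scaled CPM (log axis) of each gene in the 3 WT libraries (open, left) and 3 dKO libraries (filled, right), with the marker shape giving the replicate and a bar the mean of 3. Tdh, Gldc, Amt and Psat1 in dKO lie below all WT libraries, the main Gcat row lies above them, and WT replicate 2 is the lowest WT library for Tdh and Phgdh.

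Amt, which encodes the aminomethyltransferase of glycine cleavage, showed the largest fall among the 10 genes. It had 80.8, 73.4 and 86 CPM in WT and 47.7, 50 and 53.8 CPM in dKO. Every dKO library lay well below every WT library, and the 3 dKO values were close to each other. The log2 fold change was -0.66 (SE 0.101, 95% interval -0.89 to -0.44, edgeR quasi-likelihood adjusted p = 0.00107). Per length Amt went from 78.0 ± 5.03 to 48.8 ± 2.41 TPM, again with no overlap.

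Gldc, the glycine decarboxylase gene and the most counted of the 10, had 650, 596 and 610 CPM in WT and 517, 516 and 485 CPM in dKO. The gap between the genotypes was larger than the spread within either. Its log2 fold change was -0.29 (SE 0.0817, 95% interval -0.47 to -0.11, edgeR quasi-likelihood adjusted p = 0.0224). Without WT replicate 1 the gene was not called (adjusted p = 0.085), nor without dKO replicate 1, 2 or 3 (0.0822 to 0.0974), nor with scaling by library totals (0.0725). Over all alternatives the adjusted p ran from 0.00372 to 0.0974. On the TPM scale the groups overlapped, with 217 to 297 in WT and 188 to 245 in dKO.

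Of the other subunits, Dld, encoding the dihydrolipoamide dehydrogenase that glycine cleavage shares with other complexes, fell from 118 ± 5.6 to 96.4 ± 2.7 CPM (log2 -0.30, edgeR adjusted p = 0.021). Gcsh, encoding the lipoyl carrier protein, was at 86 ± 8.55 and 93.4 ± 7.22 CPM and was not called (log2 0.12, 95% interval -0.12 to 0.36). Dld and Gcsh were chosen after their values were seen. Within the complex, Amt counts per 100 Gldc counts were 12.4, 12.3 and 14.1 in WT and 9.22, 9.7 and 11.1 in dKO (exact permutation test, two-sided, p = 0.1; 0.167 adjusted over 5 ratios). Groups did not overlap in this ratio.

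Psat1, the phosphoserine aminotransferase gene, had 390, 379 and 401 CPM in WT and 315, 311 and 331 CPM in dKO, with no overlap. The log2 fold change was -0.29 (SE 0.0781, 95% interval -0.47 to -0.11, edgeR quasi-likelihood adjusted p = 0.0181). The gene was not called without WT replicate 1 (adjusted p = 0.0536), without dKO replicate 1 (0.105), without dKO replicate 2 (0.101) and with library totals (0.0522), over a range of 0.00259 to 0.105. On the TPM scale WT ran from 216 to 356 and dKO from 196 to 236, which overlapped.

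Phgdh, the phosphoglycerate dehydrogenase gene at the head of serine synthesis, had 245, 184 and 253 CPM in WT and 196, 184 and 213 CPM in dKO. WT replicate 2 (183.56) lay just below the lowest dKO library (184.39), and the other WT libraries lay above the highest. The groups thus overlapped in CPM. On the TPM scale they did not, with 198 to 223 in WT and 180 to 194 in dKO. The log2 fold change was -0.20 (95% interval -0.49 to 0.08, edgeR adjusted p = 0.252) and became -0.33 without WT replicate 2, where it was called (adjusted p = 0.00372, range over the alternatives 0.00372 to 0.53). Psph, the phosphatase gene that completes the pathway and chosen after its value was seen, was at 40.2 ± 6.63 and 36.4 ± 0.7 CPM and was not called (log2 -0.14).

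**Figure D3:**
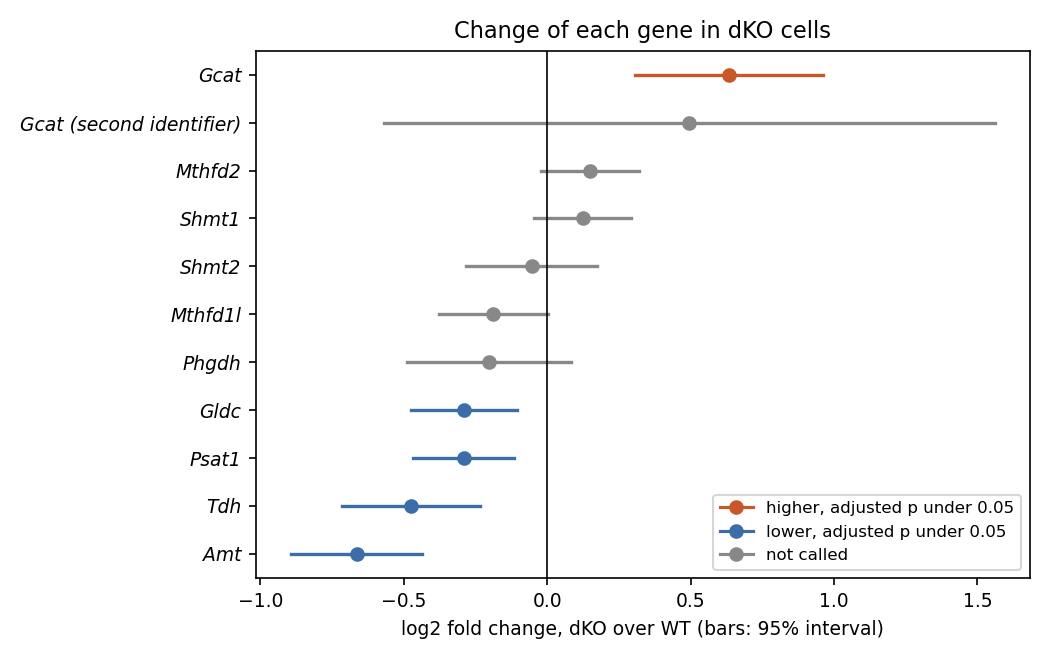
Log2 fold change, dKO over WT, of the 11 rows with 95% intervals from edgeR's quasi-likelihood fit, ordered by size. Amt at -0.66, Tdh at -0.47, Psat1 and Gldc at -0.29 were called lower, the main Gcat row at 0.63 was called higher, and the grey rows were not called.

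The serine hydroxymethyltransferase genes were not called. Shmt1 had 199, 191 and 191 CPM in WT and 215, 207 and 210 CPM in dKO. The dKO libraries all lay above the WT libraries, by little (log2 0.12, 95% interval -0.04 to 0.29, edgeR adjusted p = 0.232). Smcr8 overlaps Shmt1 on the opposite strand with 53.3% as many counts. No source read here says that reads were counted by strand, so the Shmt1 values are uncertain. On the TPM scale the Shmt1 groups overlapped, with 96.1 to 159 in WT and 120.5 to 158 in dKO. Shmt2 had 180, 147 and 185 CPM in WT and 161, 168 and 165 CPM in dKO, which overlapped (log2 -0.05, 95% interval -0.28 to 0.17; 0.01 with library totals). The interval leaves room for a change of 0.823 to 1.13 times. Shmt2 counts per 100 Shmt1 counts were 88.3 ± 9.97 in WT and 78 ± 3.25 in dKO (SD, n = 3 each; exact permutation test, two-sided, p = 0.3; 0.375 adjusted).

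The genes of the mitochondrial folate route had values of opposite sign, neither called. Mthfd2, encoding the methylene-tetrahydrofolate dehydrogenase, had 161, 168 and 168 CPM in WT and 180, 188 and 183 CPM in dKO, without overlap (log2 0.15, 95% interval -0.02 to 0.32, edgeR adjusted p = 0.156). Mthfd1l, whose product releases formate, had 113, 103 and 111 CPM in WT and 99.6, 94.5 and 92.1 CPM in dKO, also without overlap (log2 -0.19, 95% interval -0.38 to 0.00, edgeR adjusted p = 0.117). On the TPM scale the groups overlapped for both genes. Mthfd2 ran from 118 to 162 in WT and 139 to 172 in dKO, and Mthfd1l from 40.7 to 53.3 and 39.3 to 46.55. Without WT replicate 2 Mthfd1l was called lower (log2 -0.23, adjusted p = 0.0262). Mthfd2 counts per 100 Mthfd1l counts went from 153 ± 10.2 to 193 ± 10.3 (SD, n = 3 each). The exact permutation test, two-sided, gave p = 0.1, the smallest that 3 against 3 allows, and 0.167 adjusted. Since both genes separated the genotypes in CPM, in opposite directions, this ratio could not overlap and its p-value was fixed. It adds nothing to the results of the genes, neither of which was called.

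Levels were compared between genes per length. In WT the order of mean TPM was Psat1 (272), Gldc (261), Tdh (237), Phgdh (207), Shmt2 (141), Mthfd2 (137), Shmt1 (129), Amt (78), Mthfd1l (47.5) and the main Gcat row (32.2). The ranges of Psat1, Gldc and Tdh overlapped, and so did those of Tdh and Phgdh, of Shmt2, Mthfd2 and Shmt1, and of Mthfd1l and Gcat. Phgdh stood clear of Shmt2, and Amt of both its neighbours in this order. In dKO, Gldc (224) and Psat1 (217) led, Tdh (176) came after Phgdh (188), and Gcat (55.6) came before Amt (48.8) and Mthfd1l (44.4). The ranges of these last 3 overlapped in dKO, as did those of Tdh and Phgdh. Tdh in WT was above 96.1% of tested genes in TPM, and 94.8% in dKO. Amt moved from above 86.7% to above 78.1%, and Gcat from above 70.3% to above 80.5%.

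The wider folate list held 23 tested genes, of which 5 were higher, 3 were lower and 15 were not called, with a median log2 fold change of 0.13. Mtr, the methionine synthase gene that links folate to methionine, fell from 155 ± 15.8 to 91.1 ± 6.75 CPM (log2 -0.77, SE 0.102), while Mtrr, encoding the reductase that keeps methionine synthase active, rose from 67 ± 2.71 to 88.4 ± 1.82 CPM (log2 0.40). The reduced folate carrier gene Slc19a1 rose from 19 ± 2.77 to 31.6 ± 1.47 CPM (log2 0.73), and Sfxn3, encoding a mitochondrial sideroflexin, rose by 0.69 on the log2 scale. Mthfd2l, the close relative of Mthfd2, rose at a low level, from 1.49 ± 0.158 to 3.38 ± 0.344 CPM (log2 1.17, SE 0.229). Mthfd1, the cytosolic folate enzyme gene chosen after its value was seen, fell from 388 ± 22.4 to 299 ± 5.65 CPM (log2 -0.37). Adjusted p over the 5 named by rule ran from 0.000485 to 0.00615 in edgeR's test.

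In the list of methionine cycle, S-adenosylmethionine (SAM), transsulfuration and polyamine genes, 5 of 16 tested genes were lower, 1 was higher and 10 were not called (median -0.34). The largest change among the called genes was that of Cth, which encodes the cystathionine lyase that makes cysteine. It had 195, 215 and 192 CPM in WT and 69.2, 71.1 and 72.9 CPM in dKO, far from overlap (log2 -1.50, SE 0.0852, edgeR quasi-likelihood adjusted p = 3.34e-06). The polyamine genes Odc1 (log2 -0.45) and Sms (log2 -0.53) fell. Ahcy, which hydrolyses S-adenosylhomocysteine, rose from 431 ± 28.9 to 565 ± 13.3 CPM (log2 0.39), and its relative Ahcyl1 fell by 0.45 on the log2 scale. Mat2a, the SAM synthetase gene chosen after its value was seen, had means of 356 and 304 CPM in WT and dKO (log2 -0.23, not called).

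Among 18 genes of purine and pyrimidine synthesis, of which Gart and Atic encode enzymes that take formyl groups from folate, 3 were higher, 3 were lower and 12 were not called (median -0.05). Prps1 (log2 0.63), Pfas (log2 0.54) and Cad (log2 0.56) rose. Atic, which acts in the last steps of purine synthesis, fell from 305 ± 11.7 to 223 ± 0.204 CPM (log2 -0.45), and Gmps fell by 0.45, a call lost without dKO replicate 1 (adjusted p = 0.0731) or dKO replicate 3 (0.057). Gart, which acts earlier in that route and was chosen after its value was seen, was not called (log2 -0.07).

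Other threonine, serine and glycine enzymes gave 2 higher, 2 lower and 8 not called among 12 tested of 19. Gars, the glycyl-tRNA synthetase gene, fell from 435 ± 7.63 to 333 ± 4.61 CPM (log2 -0.39). Gatm, which uses glycine for creatine synthesis, fell from 3.32 to 1.42 CPM (log2 -1.22), and Gamt, the next enzyme of that route, rose from 0.369 to 1.11 CPM (log2 1.55). The Gamt call was lost without WT replicate 1, dKO replicate 2 or dKO replicate 3 (adjusted p 0.063 to 0.0805). Glyctk, encoding glycerate kinase, rose by 0.87 on the log2 scale, and Alas1, which uses glycine for heme, was not called (log2 -0.26) except without WT replicate 2 (adjusted p = 0.0242). Tha1, a threonine aldolase gene chosen after its value was seen, had 6 to 10 counts per library and was not tested.

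Amino acid transporter genes were higher in 4 of 15 tested cases, lower in 2 and not called in 9 (median 0.08). Slc38a1 fell from 179 ± 11.8 to 100.04 ± 9.66 CPM (log2 -0.84) and Slc7a8, a chromosome 14 gene, fell by 1.32 (log2). The glycine transporter gene Slc6a9 rose from 8.46 ± 1.31 to 13.7 ± 1.32 CPM (log2 0.69), Slc43a1 rose by 1.19 and Slc1a4, a neutral amino acid transporter gene, by 0.26. The Slc1a4 call was lost in 7 of 14 alternatives (edgeR and DESeq2 adjusted p 0.00913 to 0.186), including without WT replicate 1, without WT replicate 3 and without any 1 dKO library.

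In the amino acid response list, which holds known targets of the stress factor ATF4, 3 of 19 tested genes were higher, 5 were lower and 11 were not called (median -0.23). Pycr1, a proline synthesis gene, rose from 23.9 ± 1.01 to 60.6 ± 2.26 CPM (log2 1.34, SE 0.0972) and Chac1 rose by 0.50, while Cebpg fell by 0.61, Trib3 fell by 0.51 and Pck2, a chromosome 14 gene, fell by 0.79 (log2). Leaving out WT replicate 1, dKO replicate 1 or dKO replicate 2 lost the calls of Chac1 (adjusted p 0.0529 to 0.0705) and Trib3 (0.0507 to 0.0555), and leaving out dKO replicate 3 lost that of Chac1 (0.0647). Atf4 itself, chosen after its value was seen, had means of 230 and 226 CPM in WT and dKO (not called, log2 -0.02, 95% interval -0.29 to 0.24). The list's count of called genes was 8, and it was 3 without dKO replicate 1 or dKO replicate 2, 4 without WT replicate 1, 11 without WT replicate 2 and 12 in the fit with replicate number as a block. The share of called genes in these 6 lists ran from 33.3% to 42.1% of tested members, near the 34.3% over all genes tested.

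**Figure D4:**
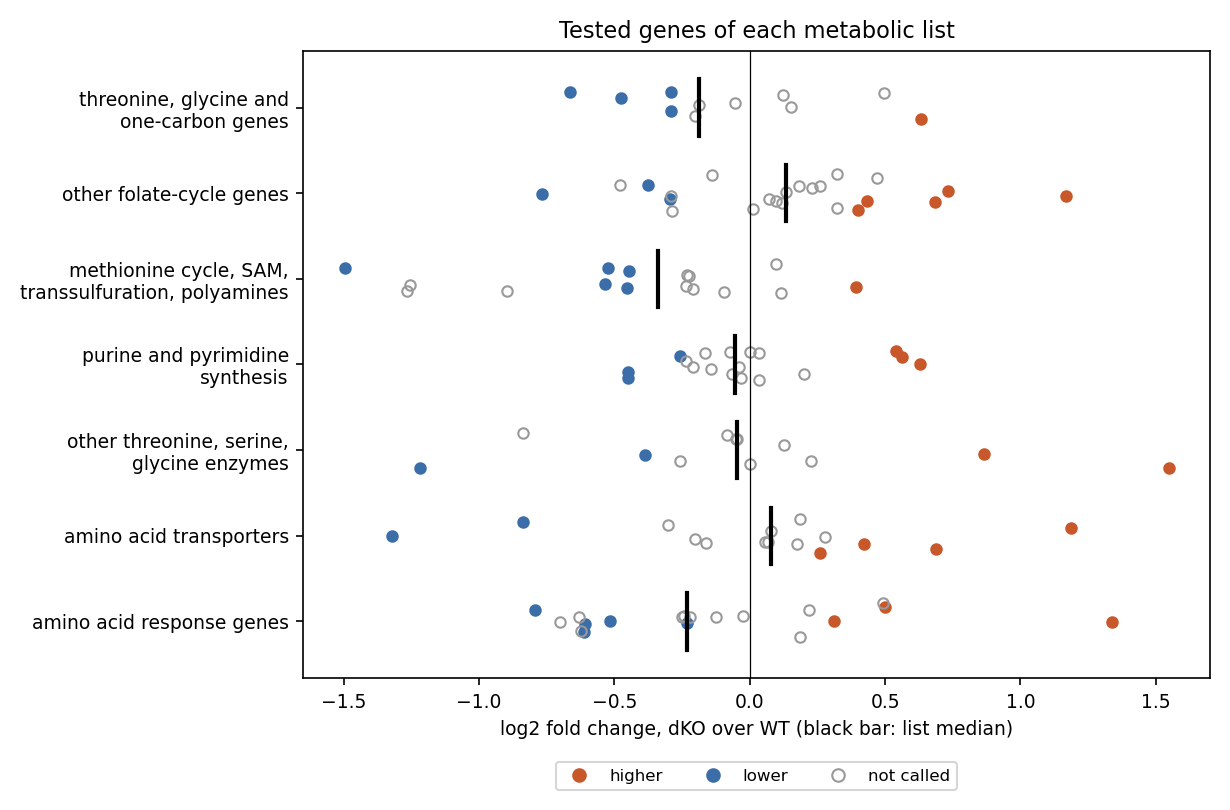
Log2 fold change, dKO over WT, of every tested gene in the 11 rows described here and in 6 related metabolic lists; each circle is 1 gene, filled where called, and the black bar is the list median. The medians lie between -0.34 and 0.13, and each list has called genes on both sides of 0.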

How the data were processed

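The authors deposited 1 table for 3 WT and 3 dKO libraries. It holds expected counts, TPM and gene length, with the authors' comparison of dKO and WT as a fold (ratio), log2 fold, p-value and adjusted p-value, per the file headers. FastQC, HISAT2 2.1.0, RSEM, DESeq 1.26.0 and GRCm39 are named in the submitters' processing notes, without roles. The annotation release and strand setting are not given in the sources used here. Libraries were made from total RNA with a TruSeq kit, per the labels' protocols.

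Expected counts were rounded. Genes were kept with filterByExpr, scaled with TMM and tested with edgeR 4.0.16 (R 4.3.3) by robust quasi-likelihood with genotype only, Benjamini-Hochberg adjustment over 15714 genes. The SE is the log2 fold change over the square root of F, and intervals are 95%. CPM use TMM factors and are mean ± SD. Total counts of 18384804 to 24910541 limit precision by counting error, mostly for genes with few counts. Libraries of a genotype also differed by more than counting error, with a common biological coefficient of variation of 0.156 in edgeR's fit. DESeq2 1.42.0 was an alternative. Scripts were tested on simulated data, with the changed genes drawn from all tested genes. Calls recovered 13 of 50 genes changed 1.5-fold, 31 of 50 changed 2-fold, 47 of 50 changed 4-fold and 49 of 50 changed 8-fold. These rates cover genes drawn from all tested genes, so they do not give the rate for the genes described here. Gldc and Psat1, each at 0.818 times the WT level, were called with changes smaller than 1.5-fold. A gene that was not called can still have changed, within the limits of its 95% interval. Tables were made in Python 3.11.15 (pandas 2.3.3, with NumPy 2.4.6), exact tests in SciPy 1.17.1 and plots in matplotlib 3.10.9.

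Gene order and overlaps came from GENCODE M21 (GRCm38, not the authors' build) by Ensembl identifier, so no gene coordinates are given. Of the listed symbols, 6 were matched through RefSeq synonyms. The members and lists were chosen with earlier results of these data known. Named genes are the 10 members, up to 5 genes with the smallest p per list, the knocked-out genes and 4 tested neighbours of Tdh on each side; others are said to be chosen after their values were seen.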

Additional observations from a re-analysis of the deposited data

How the results depend on the processing

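Across 14 alternative settings, Tdh and Amt were called lower and the main Gcat row higher in all 14. With scaling by library totals, 3 rows were called, 2 of them lower, and the median of the 11 rows was -0.13. With the 6 libraries left out in turn, the count of called genes ran from 3586 to 6828, called rows from 3 to 7, lower rows from 2 to 6, the median of the 11 rows from -0.23 to -0.13, and the excess of Tdh over the chromosome 14 median from 0.34 to 0.53 (0.46 with all libraries). Over all tested genes, lower calls outnumbered higher ones with all libraries and TMM, but not with library totals (3034 higher, 2393 lower), RLE size factors (2684 and 2671), no low-count filter (2899 and 2880) or DESeq2 (2669 and 2644). Shmt2, not called in any setting, had a log2 fold change of 0.0084 with library totals. The cause was not tested. In the fit with the replicate number as a block, 2 rows were higher, the second Gcat identifier among them (adjusted p = 0.0373), and 6794 genes were called. Same-numbered libraries deviated from their group means with correlations of -0.0763, 0.273 and 0.329, and not every library correlated best with its own number, so the numbers were not taken as pairs. Of 711 alternative values over 51 named results, 674 kept direction and side of the threshold, 32 lost the call and 4 gained it. Values at a few CPM, such as Mthfd2l and Gamt, are limited by depth.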
